A study of Mus musculus with 19 samples.

Results

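Skeletal muscle genes, 46 in number, were followed through 19 mouse RNA-seq samples of a study that aimed to turn fibroblasts into prostate tissue. The genes form a given list of myogenic regulators, developmental and adult sarcomere isoforms, and genes of excitation and energy supply. All 46 were found by symbol among 23284 genes in a table of 17 samples, and again among the 23259 names shared with a second table of 2 samples. By role the list holds 2 progenitor regulators, 4 myogenic factors, 3 developmental isoforms, 10 adult fast isoforms and 5 slow isoforms. It also holds 9 sarcomere genes grouped as common to fibre types, 9 genes of excitation and calcium handling and 4 of energy supply. The grouping as common was not checked gene by gene, so some of these genes may differ between fast and slow fibres. The label adult fast stands for fast fibre type, so a count of its genes does not measure how mature fibres were. Of this role only the myosin heavy chains Myh1, Myh2 and Myh4 are weighed against developmental myosins below.

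Skeletal muscle forms from progenitors marked by the paired-box factors Pax3 and Pax7. These cells switch on the basic helix-loop-helix factors Myf5 and Myod1, then Myog and Myf6, fuse into fibres and assemble sarcomeres from myosin, actin, titin and troponin. Fetal fibres use embryonic and perinatal myosin and the gamma subunit of the acetylcholine receptor, which give way to adult fast or slow isoforms and to the epsilon subunit as fibres mature and are innervated. Prostate stroma contains smooth muscle, which uses other myosin and actin genes, although striated muscle of the urethra lies close to the gland.

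The study made induced epithelial (iEpt) cells from mouse embryonic fibroblasts (MEFs) with retroviruses for human OCT4, SOX2, KLF4 and c-MYC. For iEpt+NAF cells, 3 candidate master regulators of prostate, among them Foxa1, were added with lentiviruses. Cells were mixed with late embryonic rat urogenital mesenchyme and grown for 6 weeks under the kidney capsule of male nude mice that carried testosterone pellets. The comparisons below ask in which of these samples skeletal muscle transcripts were found, how much of them there was, and whether their isoforms were embryonic or adult. The 7 renal grafts all have strain C57BL/6 in their labels and all contained mouse cells, rat mesenchyme and a bed of host kidney. FS002, FS003, FS005, FS007 and FS008 were iEpt+NAF grafts by the study's supplement, and FS022 and FS023 were taken as the iEpt only grafts by elimination. The 6 prostate samples, FS009 to FS014, were wild-type C57BL/6 tissue at 6 weeks of age with all lobes combined. The 6 MEF samples, FS015 to FS020, were cultures from limbs of E13.5 embryos, pooled from male and female littermates and sorted against blood, endothelial and epithelial markers, and they carried a heterozygous LacZ allele by their labels, at a locus not reported here.

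The values are log2 normalized read counts, and each is a deposited log2 value unless stated otherwise. Between 16767295 and 26152349 reads on genes stood behind each of the 17 samples, but 6629666 and 9662062 behind FS022 and FS023. The level that 3 reads would give was taken as the smallest the depth can show, and it lay between 1.68 and 2.34 in the 17 samples, at 3.12 in FS022 and at 2.70 in FS023. The 6 genes that mark prostate (5 secretory genes and Krt8) took 8.10% to 13.3% of normalized reads in prostate and 0.0637% to 0.113% in the iEpt+NAF grafts. They took 0.0896% in FS022, 0.0129% in FS023 and 0.000914% to 0.0223% in MEFs, with the highest MEF values in FS015 to FS018. Krt8, also 1 of the 5 epithelial genes, was the highest of the 6 in every iEpt+NAF graft (12.43 to 13.84). Of the 5 secretory genes only Spink3 was called higher in these grafts than in MEFs (5.53, SE 1.66, adjusted p = 0.0123, limma as described below). The graft share therefore does not measure prostate content. In MEFs the fibroblast genes took 2.15% to 3.27%. The 5 epithelial genes took 0.137% to 0.349% in the iEpt+NAF grafts. The MEF samples formed 3 close pairs, FS015 with FS020, FS016 with FS019 and FS017 with FS018, whose log2 differences had an SD of 0.151 to 0.161 against 0.559 to 0.693 in the other MEF pairs. In bulk tissue, fewer cells of a type and less RNA per cell cannot be told apart, and whether reads of the rat mesenchyme aligned to the mouse genes was not tested.

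Promoter sequences are shown first because the myogenic factors bind E-boxes, and the members described below move together across the grafts. The letters CAGCTG, an E-box read the same on both strands, were searched in windows from 250 bases before to 50 after each RefSeq start site (GRCm38.p6). They occurred in 19 of the 39 windows that matched 35 of the 46 genes, or 48.7%, against 16.3% of all 32851 windows of that length. At least 1 window of 17 members held them. In the examples below, from a fetal receptor subunit, a second receptor subunit, an adult fast myosin, both fast myosin light chains and the fast calcium pump, the capitals mark the E-box.
Chrng: atatcctgggaaCAGCTGacaatgcagtgg
Chrna1: ctgtgggcagctCAGCTGtcatgcgggcac
Myh4: ccgcagctaggaCAGCTGaggtggctgctg
Myl1: aggtacgtctgtCAGCTGtcaccaaaccaa
Mylpf: cttcctgggctcCAGCTGctgcaggcctcc
Atp2a1: cctcataaggacCAGCTGggggctgggggg
These stretches lie at chr1:87205644-87205673 (Chrng, plus strand), chr2:73580413-73580442 (Chrna1, minus), chr11:67237733-67237762 (Myh4, plus), chr1:66945263-66945292 (Myl1, minus), chr7:127211545-127211574 (Mylpf, plus) and chr7:126463111-126463140 (Atp2a1, minus). The first base of the E-box stood at -155, -92, -67, -224, -51 and -55 from the start site in the same order. The match describes the letters only. Myod1, Myf6, Pax3, Actn3, Tnnt3, Tnni2, Neb, Tcap, Myoz1, Myom2 and Chrnd were not among the windows.

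Skeletal muscle transcripts were abundant in 3 of the 5 iEpt+NAF grafts and low in the other 2. The 46 genes together took 1.07%, 0.620% and 0.730% of normalized reads in FS002, FS003 and FS005, but 0.0408% in FS007 and 0.0191% in FS008. Prostate samples lay between 0.0382% and 0.0693%, and MEF samples between 0.0102% and 0.0155%. The iEpt only grafts were at 0.733% in FS022 and 0.138% in FS023. FS002, FS003, FS005 and both iEpt only grafts thus lay above every prostate sample, FS007 lay within the prostate range, and FS008 lay between prostate and MEFs. Such a sum weighs abundant genes most, and Acta1 had the highest value of all members in every graft and prostate sample. It was at 16.10 in FS022, 12.07 in FS007 and 12.33 to 13.20 in prostate. FS022 lay below FS002, FS003 and FS005 in 30 members although its sum was near that of FS005. The share of all shared genes that did so was not counted. Every one of the 46 genes exceeded 3 reads in FS002, FS003, FS005 and FS023, against 43 in FS022, 35 in FS007 and 33 in FS008. This separation is plotted over all genes and samples in the map of values.

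**Figure D1:**
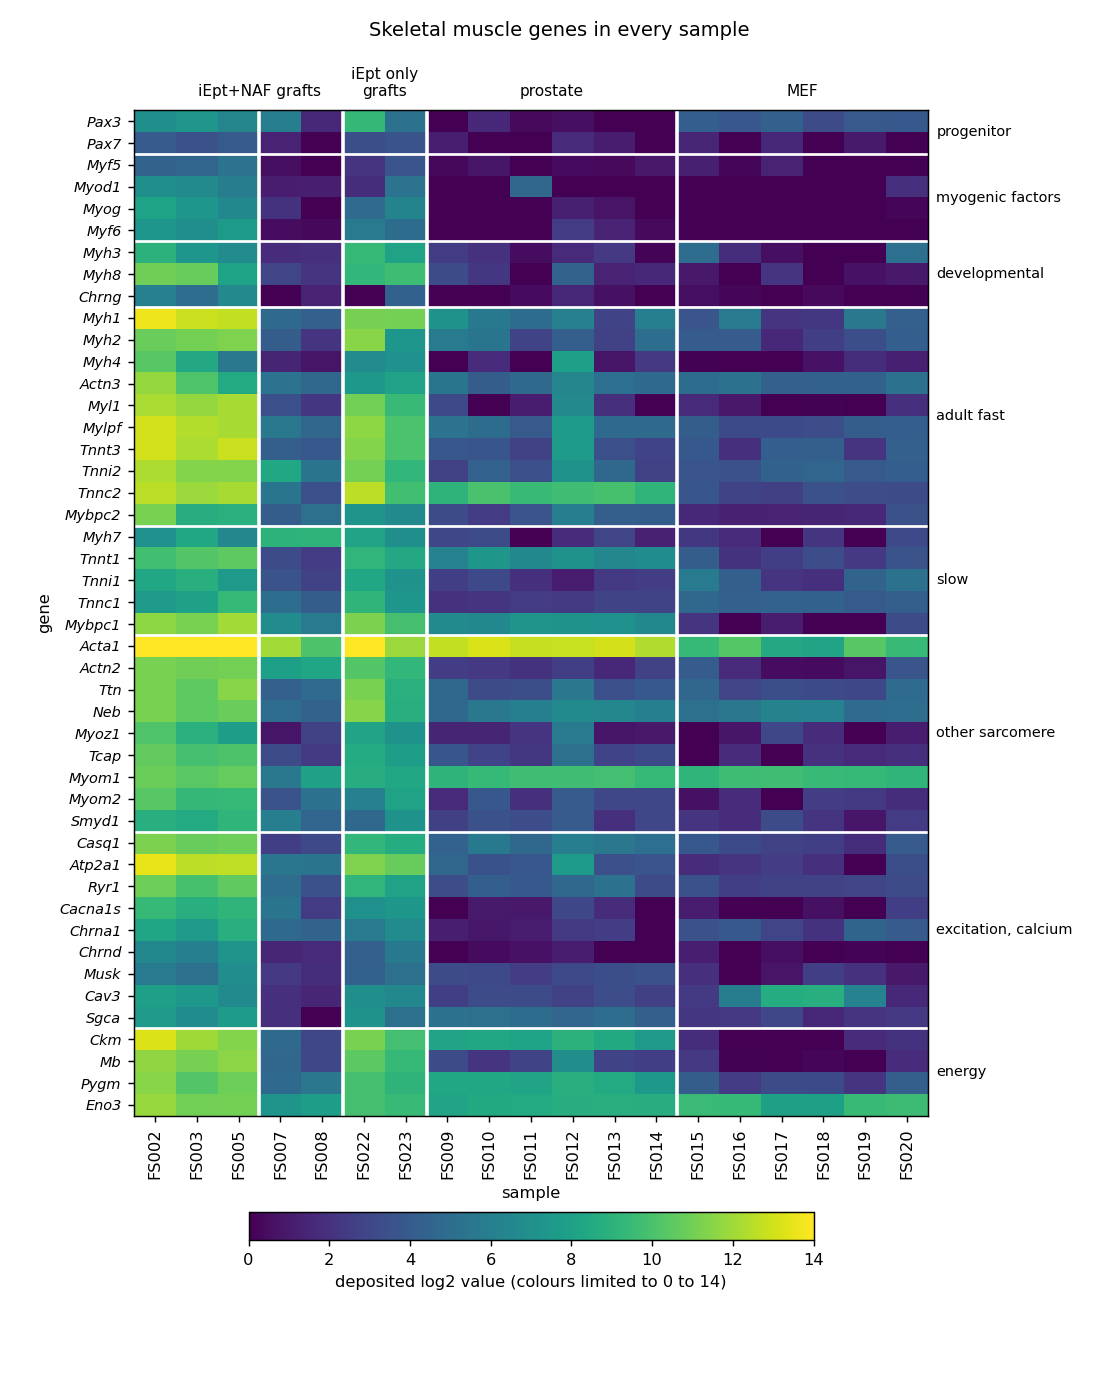
Deposited log2 values of the 46 skeletal muscle genes (rows, grouped by role) in the 19 samples (columns), with colours limited to 0 to 14. FS002, FS003 and FS005 are bright in nearly every row, FS007 and FS008 are dark outside Myh7, Acta1 and a few others, and FS012 stands out among prostate samples in several fast fibre genes.

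In 45 of the 46 genes, FS002, FS003 and FS005 all lay above both FS007 and FS008, and 26.2% of all 23284 genes did so. The distance was at least 2 log2 units in 44 members, in 5.45% of all genes, and in 6.94% of genes whose linear mean reached 10. The exceptions were Pax3, with a distance of 0.36, and Myh7, in which the 3 grafts lay below both others, as did 20.0% of all genes. The median distance from the lowest of the 3 to the higher of the other 2 was 4.62 log2 units over the members and -0.54 over all genes. The sample labels put all of these grafts in 1 group, and the split may have been drawn with values known, so no test was made between the sets. FS002 had the highest value of the 3 in 30 members, FS005 in 13 and FS003 in 3.

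Against MEFs, 36 of the 46 genes were higher in the 5 iEpt+NAF grafts and none was lower (limma, Benjamini-Hochberg adjusted p under 0.05 over all genes tested and a log2 difference of at least 1). By the same rule 29.9% of the 16121 genes tested were higher and 12.0% lower, and 44 of the 46 members were tested, because Pax7 and Myf5 fell under the filter on low values. Every adult fast isoform was higher (10 of 10), as were 4 of 5 slow isoforms, 7 of 9 common sarcomere genes, 7 of 9 genes of excitation and calcium handling, 3 of 4 of energy supply, 3 of 4 myogenic factors and 2 of 3 developmental isoforms. Neither progenitor regulator passed. The 8 that were tested and not called were Pax3, Myh3, Tnni1, Neb, Myom1, Cav3, Sgca and Eno3. Over all 46 genes the median difference was 5.04 log2 units, or 4.62 with the 10 members that were at or below 3 reads in every MEF sample set at that level, against 0.30 over all genes. With quantile normalization 28 members were higher and none lower, while among all genes called the share that was higher went from 71.3% to 45.4%, the median gene tested moving from 0.26 to -0.14. The count fell to 22 with MEF pairs averaged to 3 samples and to 7 without FS015 to FS018, which leaves 2 MEF samples. The 14 calls lost with pairs averaged were Myog, Chrng, Myh1, Myh2, Myh4, Actn3, Tnnt3, Tnnc2, Tnnt1, Tnnc1, Ttn, Myoz1, Casq1 and Musk. The 7 kept without FS015 to FS018 were Actn2, Atp2a1, Cacna1s, Mybpc1, Myh7, Smyd1 and Tnni2.

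Against prostate, 27 of the 46 genes were higher in the same grafts and none was lower. By the same rule 23.0% of the 16353 genes tested were higher and 10.3% lower, and the same 44 members were tested. The genes that passed included 3 of 4 myogenic factors, all 3 developmental isoforms, 6 of 10 adult fast isoforms, 3 of 5 slow isoforms, 5 of 9 common sarcomere genes, 5 of 9 genes of excitation and calcium handling, Mb as the only 1 of 4 energy genes, and Pax3. The median difference over all 46 was 3.93 log2 units, or 3.75 with 6 members that were at or below 3 reads in every prostate sample set at that level, against 0.15 over all genes. Quantile normalization left 25 higher and none lower, with the share of higher calls among all genes going from 69.1% to 45.2% and the median gene tested from 0.11 to -0.12. The count was 15 without FS002, without FS003 or without FS005, and the same 15 genes were kept each time. The 12 calls lost were Myod1, Myf6, Myh3, Myh8, Chrng, Actn3, Myl1, Mylpf, Tnnt3, Tcap, Ryr1 and Mb. It was 35 without FS007 or without FS008. MEFs and prostate are each compared with the same 5 grafts, so the counts are not independent.

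**Figure D2:**
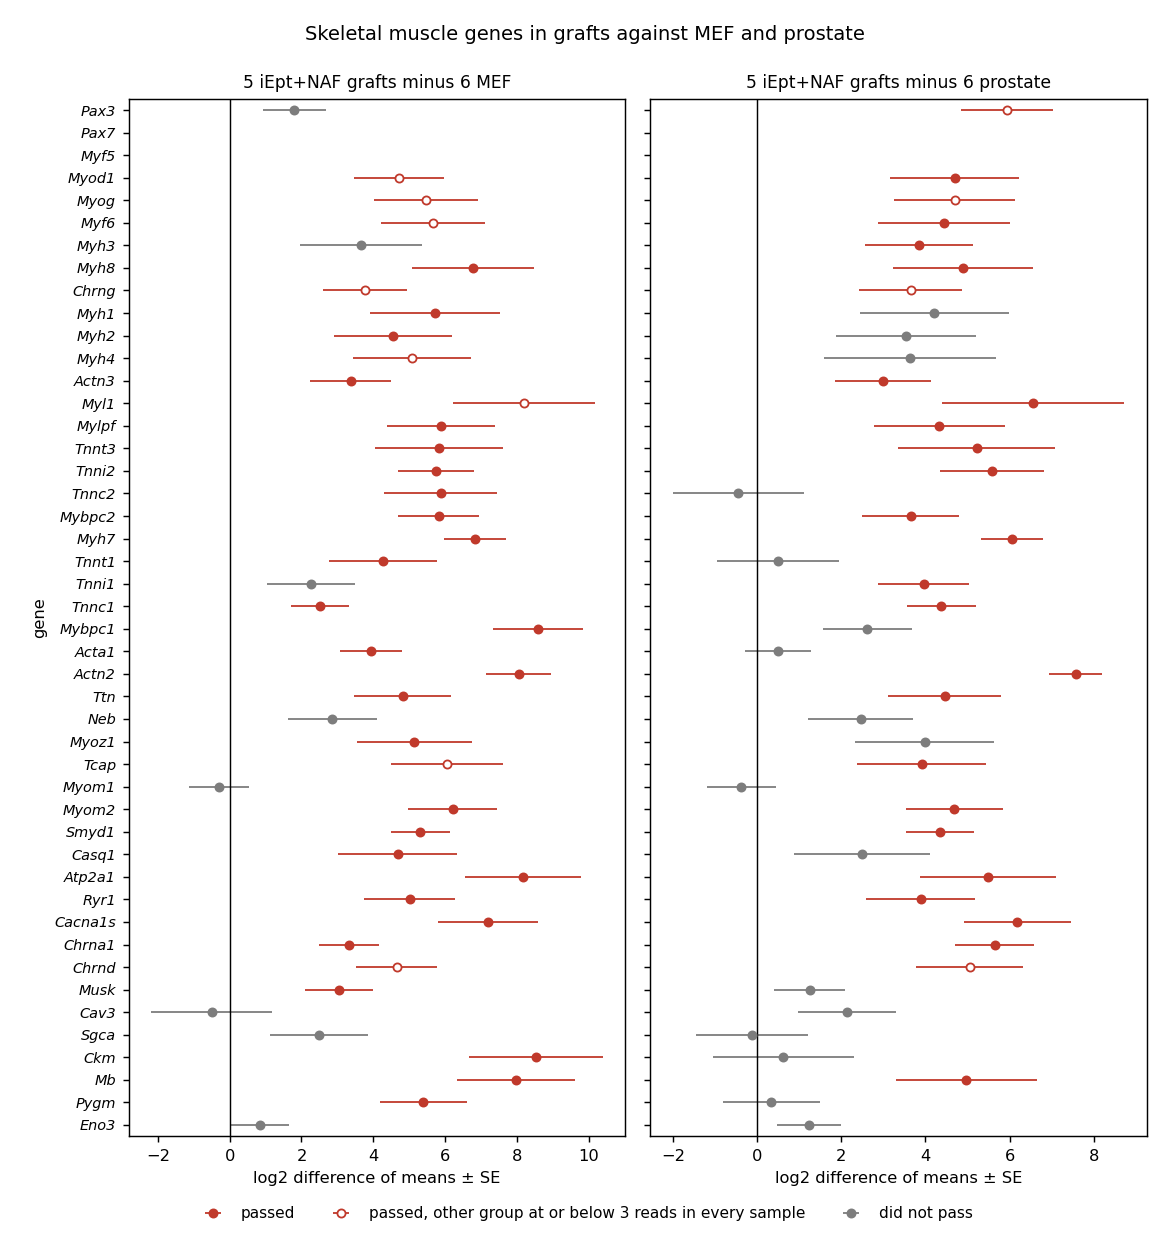
Log2 difference of means with its standard error (horizontal axis) for each skeletal muscle gene (rows), 5 iEpt+NAF grafts minus 6 MEF samples on the left and minus 6 prostate samples on the right. Red points passed the test, 36 on the left and 27 on the right, grey points did not, open points are fitted values where the other group was at or below 3 reads in every sample and are not bounds, and Pax7 and Myf5 were not tested.

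The progenitor regulators differed in pattern. Pax3, a paired-box factor of migrating muscle precursors that also acts in the neural tube and neural crest, was at 6.99, 7.31 and 6.36 in FS002, FS003 and FS005, at 6.00 in FS007, 1.62 in FS008, 9.32 in FS022 and 5.24 in FS023. It was present in every MEF sample (lowest 3.18, median 3.88, highest 4.27) and at or below 3 reads in every prostate sample and in FS008, alone among the grafts. Pax3 passed against prostate (adjusted p = 7.9e-04 for the fitted difference, limma), with a graft mean 3.50 log2 units above the level of 3 reads in prostate. It did not pass against MEFs (log2 difference 1.8, SE 0.88, adjusted p = 0.0913, limma). Pax7, the factor of satellite cells, was at 4.09, 3.50 and 3.96 in FS002, FS003 and FS005, at 3.39 in FS022 and 3.65 in FS023. It was at or below 3 reads in FS007 (1.32), FS008 (-1.20) and all prostate and MEF samples.

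The 4 myogenic factors were each above 3 reads in FS002, FS003 and FS005. Myog, which drives terminal differentiation and fusion, was at 8.12, 7.34 and 6.54 there, at 2.03 in FS007 and -0.46 in FS008, and at 4.92 in FS022 and 6.31 in FS023. In prostate it ranged from -1.04 to 1.24 (median -0.10) and in MEFs from -2.13 to 0.27 (median -0.74), at or below 3 reads in all 12 samples. Thus 4 of the 5 iEpt+NAF grafts lay above every MEF and every prostate sample, though FS007 barely exceeded its own level of 3 reads (1.98). Myod1, which commits cells to the muscle lineage, was at 6.97, 6.68 and 5.96 in FS002, FS003 and FS005 and at 5.34 in FS023. It was at or below 3 reads in FS007 (1.15), FS008 (1.16) and FS022 (1.82). Prostate sample FS011 was at 4.64, while the other 5 prostate samples lay between -2.68 and -0.68, and MEFs lay between -1.31 and 1.95. Myf5, the earliest of the 4 to appear in the embryo, was at 4.46, 4.57 and 5.32, at 0.51 in FS007, -1.38 in FS008, 2.12 in FS022 and 3.70 in FS023, and no prostate or MEF sample exceeded 3 reads. Myf6, a factor of maturing and adult fibres, was at 7.35, 6.96 and 7.61, at 0.46 in FS007, 0.29 in FS008, 5.77 in FS022 and 4.93 in FS023. Of prostate samples FS012 (2.48) was the only one above 3 reads for Myf6, and MEFs lay between -1.71 and -0.44.

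Myod1, Myog and Myf6 each passed against MEFs, where all were at or below 3 reads (adjusted p = 0.0061, 0.0064 and 0.0052 for the fitted differences, limma). Their graft means lay 2.40, 2.73 and 2.55 log2 units above that level. These means include grafts at or below 3 reads, so the distances are not strict bounds. Against prostate, Myod1 was higher by 4.70 (SE 1.53, adjusted p = 0.0217) and Myf6 by 4.44 (SE 1.57, adjusted p = 0.0308, both limma). Myog also passed (adjusted p = 0.0160 for the fitted difference, limma), with a graft mean 2.56 above the level of 3 reads in prostate. An exact two-sided permutation test over samples gave p = 0.00866 for Myog against MEFs and p = 0.0152 against prostate (0.0173 and 0.0242 after Benjamini-Hochberg adjustment over the 8 such tests made for Myog, Myh1, Acta1 and Myh7). For each of these genes, the permutation against MEFs took the samples as separate units although they formed close pairs. No permutation test was run with the pairs averaged. Without FS002, FS003 or FS005, Myod1 and Myf6 were no longer called against prostate. Against MEFs the call of Myog was lost with pairs averaged (adjusted p = 0.0503, limma), and those of all 3 were lost without FS015 to FS018 (adjusted p = 0.119 to 0.175, limma).

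**Figure D3:**
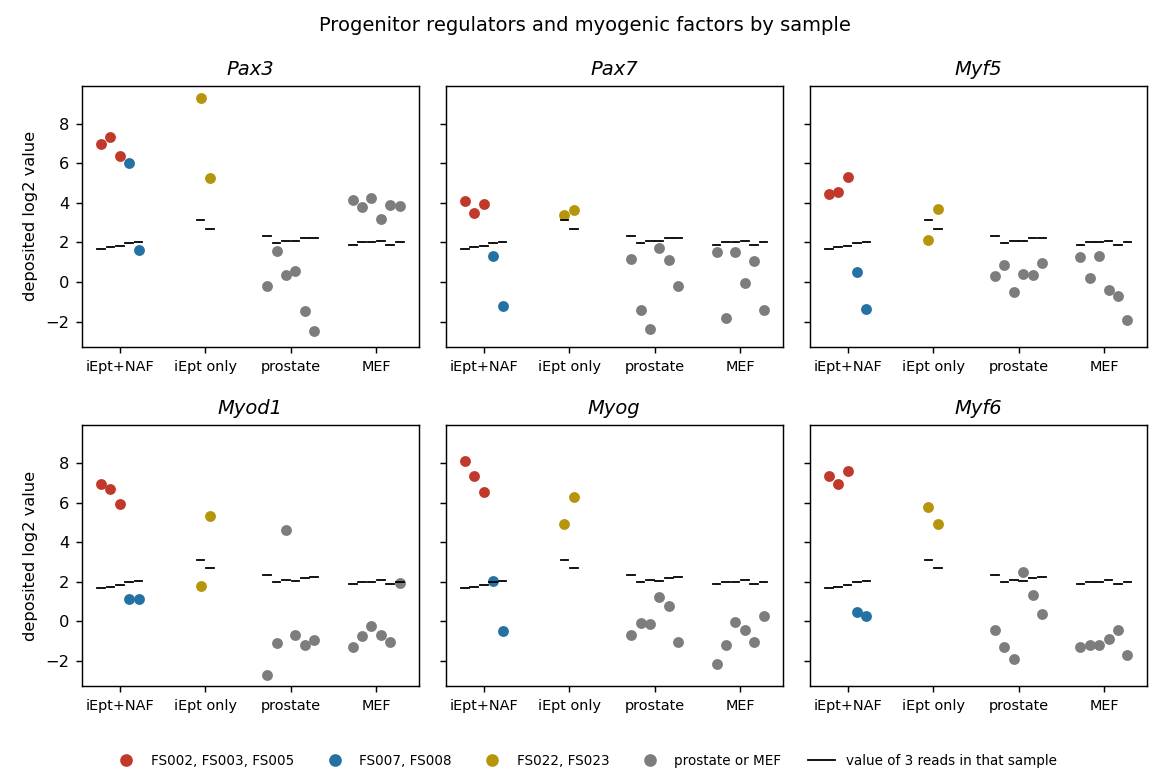
Deposited log2 values of the 2 progenitor regulators and 4 myogenic factors by sample, with short black lines at the value of 3 reads in each sample. FS002, FS003 and FS005 (red) lie above 3 reads in every panel, FS007 and FS008 (blue) lie at or below it except for Pax3 and, marginally, Myog in FS007, and prostate sample FS011 is the only grey point well above it for Myod1.

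Among developmental isoforms, Myh8, perinatal myosin, was the most abundant. It was at 10.94, 10.74 and 8.14 in FS002, FS003 and FS005, at 2.91 in FS007, 2.19 in FS008, 9.27 in FS022 and 9.67 in FS023. Prostate reached 4.48 (median 1.93) and MEFs 2.09 (median 0.81), so both groups lay below FS002, FS003, FS005, FS022 and FS023. Myh8 was higher in the grafts by 6.77 log2 units against MEFs (SE 1.69, adjusted p = 0.0045) and by 4.90 against prostate (SE 1.67, adjusted p = 0.0265, limma). Myh3, embryonic myosin, was at 8.98, 7.38 and 6.75, at 1.8 in FS007, 1.92 in FS008, 9.37 in FS022 and 8.07 in FS023. The close pair of MEF samples FS015 (4.99) and FS020 (5.13) also held Myh3 well above 3 reads, and the highest prostate value was 2.41. Myh3 passed against prostate (difference 3.85, SE 1.28, adjusted p = 0.0240) and not against MEFs (3.66, SE 1.69, adjusted p = 0.0759). Chrng, the fetal receptor subunit, was at 6.09, 4.99 and 6.58 in FS002, FS003 and FS005 and at 4.37 in FS023. It was at or below 3 reads in FS007 (-0.19), FS008 (1.38), FS022 (-0.36) and all prostate and MEF samples, so FS022 had embryonic and perinatal myosin without detectable Chrng at its depth. The calls of Myh8, Myh3 and Chrng against prostate were each lost without FS002, FS003 or FS005 (adjusted p = 0.0571 to 0.070, limma).

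Of the adult fast myosins, Myh1 lay above Myh8 in all 5 grafts with abundant muscle transcripts, and Myh4 lay below it. Myh1, which encodes myosin of type IIx fibres, was at 13.65, 12.88 and 12.70 in FS002, FS003 and FS005, at 4.78 in FS007, 4.31 in FS008, 11.11 in FS022 and 11.07 in FS023. Prostate lay between 2.86 and 7.11 (median 5.85) and MEFs between 2.13 and 5.77 (median 4.0), so the 2 low grafts overlapped both groups. Against MEFs the difference was 5.71 (SE 1.81, adjusted p = 0.0162, limma), with 3 of 5 grafts above every MEF sample and an exact two-sided permutation p of 0.0303 (0.0404 adjusted over the 8 tests). The call was lost with the close MEF pairs averaged (adjusted p = 0.0879, limma) and without FS015 to FS018 (adjusted p = 0.242, limma). Against prostate it did not pass (4.21, SE 1.78, adjusted p = 0.0630, limma). Myh2, of type IIa fibres, was at 10.78, 11.07 and 11.29 in FS002, FS003 and FS005, 4.16 in FS007, 2.17 in FS008, 11.54 in FS022 and 7.34 in FS023. In FS023 Myh2 thus stood well below Myh1, and in FS022 it did not. Myh4, of type IIb fibres, the fastest in the mouse, was at 10.35, 8.46 and 5.60 in FS002, FS003 and FS005, and its spread over these 3 grafts was wider than that of Myh1 or Myh2. It was at 1.47 in FS007, 0.80 in FS008, 6.73 in FS022, 7.10 in FS023 and 7.89 in prostate sample FS012, against -1.26 to 2.32 in the other prostate samples. Neither Myh2 nor Myh4 passed against prostate (adjusted p = 0.0900 and 0.150, limma), and both passed against MEFs. With MEF pairs averaged the calls of Myh2 and Myh4 were lost (adjusted p = 0.129 and 0.0879, limma), as they were with quantile normalization (adjusted p = 0.101 and 0.0608, limma). That of Myh2 was also lost without FS002, FS003 or FS005 (adjusted p = 0.0736 to 0.0756, limma).

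The proportions of the isoforms set embryonic beside adult fibre programmes. Normalized reads were divided by the longest coding transcript of each gene (GENCODE M1, mm9), from 6016 bases for Myh4 to 6230 for Myh7. Of the summed level per kb of Myh3, Myh8, Myh1, Myh2, Myh4 and Myh7, the 2 developmental isoforms made up 13.2% in FS002, 15.2% in FS003 and 3.97% in FS005, and 18.6% in FS022 and 29.5% in FS023. Adult fast isoforms made up 86.1%, 82.2%, 95.1%, 77.3% and 67.1% in the same order. Adult myosin therefore outweighed developmental myosin in every graft with abundant muscle transcripts, and the 2 iEpt only grafts had larger developmental shares than any of the 3 iEpt+NAF grafts. With 2 samples and a separate table, that order is a description. Myh1 was the largest single share in FS002 (69.5%), FS003 (61.8%), FS005 (68.8%) and FS023 (59.0%), while in FS022 Myh2 (43.4%) exceeded Myh1 (32.3%). Perinatal Myh8 exceeded embryonic Myh3 in FS002, FS003, FS005 and FS023, with 10.5% against 2.74% in FS002 and 22.1% against 7.42% in FS023. In FS022 the 2 were nearly equal, at 8.90% and 9.71%.

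These shares rest on genes that resemble each other. Myh3, Myh2, Myh1, Myh4 and Myh8 lie in 1 cluster on chromosome 11 of mm9, from 66891802 (start of Myh3) to 67122136 (end of Myh8), and Myh7 lies on chromosome 14 from 55589525 to 55613471. Of all stretches of 50 bases, 26.7% of those in Myh1, 26.9% in Myh2, 21.4% in Myh8 and 18.9% in Myh4 also occurred in another gene, against 4.81% in Myh3. How reads that fit several genes were counted is not given in the sources used here, so the values of these isoforms are uncertain to that extent.

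**Figure D4:**
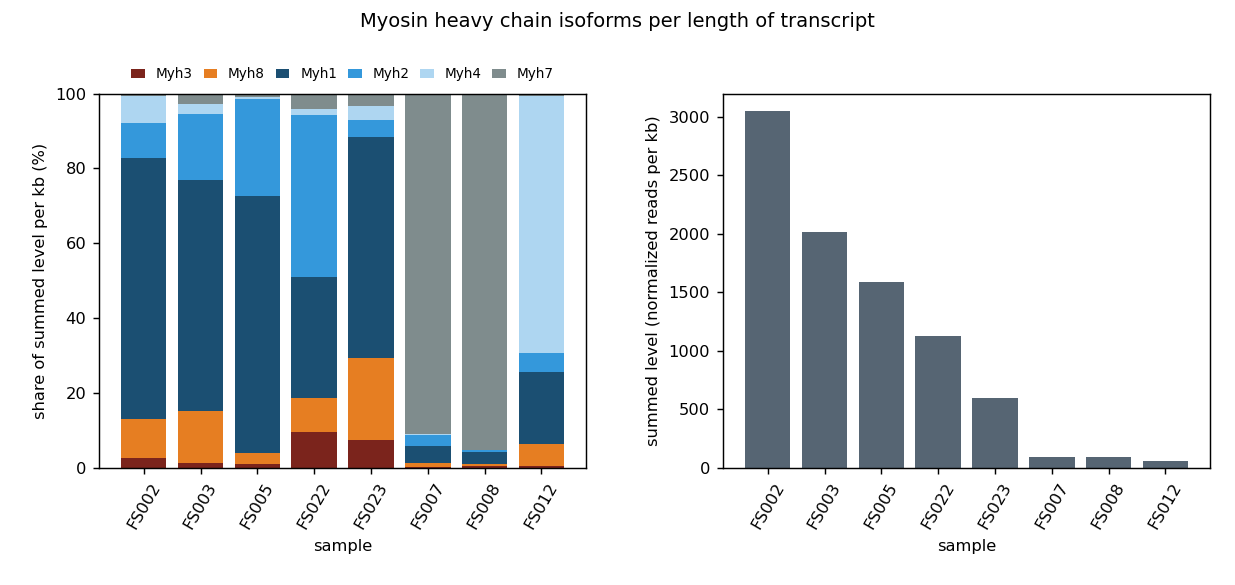
Left, share of 6 myosin heavy chain genes in their summed level per kb (vertical axis, %) in the grafts and prostate sample FS012. Right, the summed level in normalized reads per kb; developmental Myh3 and Myh8 make up 3.97% to 29.5% in FS002, FS003, FS005, FS022 and FS023, Myh7 91.0% and 95.2% in FS007 and FS008, and Myh4 68.7% in FS012, where the sum is small.

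The acetylcholine receptor subunits, whose switch goes with innervation as well as maturation, were also compared. Innervation of the grafts was not tested. Per kb, fetal Chrng stood at 1.75 times adult Chrne, the epsilon subunit, in FS002, 0.742 times in FS003, 6.69 times in FS005 and 0.651 times in FS023. FS005, with the smallest share of developmental myosin of these 4 grafts, thus had the largest ratio of fetal to adult receptor subunit. In FS022 Chrne was at 5.44 while Chrng was at or below 3 reads. Chrna1 and Chrnd, the subunits shared by both receptor forms, ranged from 7.58 to 8.82 and from 6.02 to 7.26 in FS002, FS003 and FS005. In FS007 and FS008 Chrna1 was at 4.81 and 4.48, and Chrnd was at or below 3 reads. Musk, the kinase that organizes the synapse, was at 5.71, 5.18 and 6.84 in FS002, FS003 and FS005 and at 2.32 in FS007 and 1.85 in FS008.

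Of the other adult fast genes, Tnni2 and Mylpf had the highest means over the iEpt+NAF grafts. Tnni2, fast troponin I, was at 12.29, 11.41 and 11.41 in FS002, FS003 and FS005, at 8.35 in FS007, 5.40 in FS008, 11.06 in FS022 and 9.26 in FS023. It was the fast gene with the highest value in FS007, and even FS008 lay above all MEF samples (3.48 to 4.56) and above 5 of 6 prostate samples. Tnni2 was higher by 5.74 against MEFs (SE 1.06, adjusted p = 6.3e-04) and by 5.58 against prostate (SE 1.23, adjusted p = 0.0027, limma). Mylpf, the fast regulatory light chain, was at 13.05, 12.39 and 12.18, at 5.61 in FS007, 4.63 in FS008, 11.60 in FS022 and 10.02 in FS023, and prostate lay between 3.89 and 7.72. The other 5, Actn3, Myl1, Tnnt3, Tnnc2 and Mybpc2, ranged from 8.57 to 13.06 in FS002, FS003 and FS005 and from 2.20 to 5.43 in FS007 and FS008. Tnnc2, fast troponin C, was also abundant in prostate, at 9.09 to 10.01, and its difference of -0.45 from prostate did not pass (SE 1.56, adjusted p = 0.820, limma).

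The slow isoforms split. Myh7, slow and cardiac myosin, was the single member that was lower in the grafts with abundant muscle transcripts. It was at 7.09, 8.40 and 6.48 in FS002, FS003 and FS005 against 9.06 in FS007 and 9.11 in FS008. It was at 8.18 in FS022 and 7.0 in FS023, at most 3.25 in prostate (median 2.37) and at most 3.11 in MEFs (median 1.92). All 5 iEpt+NAF grafts thus lay above every prostate and MEF sample, with differences of 6.06 (SE 0.74, adjusted p = 4.9e-05) and 6.83 (SE 0.87, adjusted p = 4.4e-05, limma). The exact two-sided permutation p was 0.00216 in each, the smallest that 5 against 6 samples can give, or 0.00866 adjusted over the 8 tests. Against MEFs this p took the samples of each close pair as separate units. The limma call of Myh7 against MEFs was kept with the pairs averaged. Per kb, Myh7 made up 91.0% of the 6 myosins in FS007 and 95.2% in FS008, but 0.711% to 2.68% in FS002, FS003 and FS005. The coding transcript of Myh7 shared 22.2% of its stretches of 50 bases with Myh6, a cardiac myosin. Myh6 was at 6.68 in FS007 and 6.33 in FS008, against 5.99, 8.22 and 5.10 in FS002, FS003 and FS005. It was at 10.19 in FS022 and 5.06 in FS023.

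The slow thin-filament and binding proteins followed the other members instead. Mybpc1, slow myosin-binding protein C, was at 11.60, 11.17 and 12.06 in FS002, FS003 and FS005, at 6.76 in FS007, 5.85 in FS008, 11.25 in FS022 and 9.86 in FS023. Tnnt1, slow troponin T, was at 9.79, 10.25 and 10.51, at 3.28 in FS007, 2.51 in FS008, 9.20 in FS022 and 8.47 in FS023. Prostate held both, Mybpc1 between 6.51 and 7.27 and Tnnt1 between 6.22 and 7.40, so FS008 lay below prostate in each. Tnni1 and Tnnc1, slow troponins I and C, were at 7.52 to 9.40 in FS002, FS003 and FS005 and at 2.78 to 5.08 in FS007 and FS008. Both were higher than in prostate, by 3.96 (SE 1.08, adjusted p = 0.0088) and 4.37 (SE 0.82, adjusted p = 9.6e-04, limma).

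Among sarcomere genes grouped as common to fibre types, Acta1, skeletal α-actin, was the highest of all members. It was at 15.18, 14.43 and 14.75 in FS002, FS003 and FS005, at 12.07 in FS007, 10.09 in FS008, 16.10 in FS022 and 11.88 in FS023. Prostate itself was at 12.33 to 13.20 (median 12.79) and MEFs at 8.15 to 10.38 (median 9.46), so that FS007, FS008 and FS023 lay below all prostate samples while FS002, FS003, FS005 and FS022 lay above them. Acta1 was higher against MEFs by 3.94 (SE 0.87, adjusted p = 0.0021, limma; exact permutation p = 0.00649, or 0.0173 adjusted over the 8 tests) and did not differ detectably from prostate (0.49, SE 0.79, adjusted p = 0.617, limma; exact permutation p = 0.617). Actn2, the α-actinin of the Z-disc, was at 11.17, 10.96 and 11.09, at 7.90 in FS007, 8.31 in FS008, 10.25 in FS022 and 9.24 in FS023, and at most 2.74 in prostate and 4.05 in MEFs. For Actn2, as for Myh7, all 7 grafts lay above every prostate and MEF sample. Actn2 was higher by 8.04 against MEFs (SE 0.90, adjusted p = 1.8e-05) and by 7.57 against prostate (SE 0.63, adjusted p = 3.6e-06, limma).

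The remaining 7 of that role, Ttn, Neb, Myoz1, Tcap, Myom1, Myom2 and Smyd1, were at 7.77 to 11.54 in FS002, FS003 and FS005. Titin (Ttn) was higher by 4.82 against MEFs (SE 1.35, adjusted p = 0.0085) and by 4.46 against prostate (SE 1.34, adjusted p = 0.0148, limma). Myom1, an M-band protein, was at 10.87, 10.43 and 10.68 in FS002, FS003 and FS005, above all prostate (9.10 to 9.80) and MEF samples (9.15 to 9.71), while FS007 (5.61), FS008 (8.02), FS022 (8.73) and FS023 (8.33) lay below them all. Smyd1, a methyltransferase needed for myosin assembly, was at 5.97 in FS007 and 4.58 in FS008, at 4.74 in FS022 and at most 4.01 in prostate.

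Genes of excitation and calcium release followed the same division of the grafts. Atp2a1, the fast calcium pump of the sarcoplasmic reticulum, was at 13.55, 12.60 and 12.68 in FS002, FS003 and FS005, at 5.47 in FS007, 5.40 in FS008, 11.29 in FS022 and 10.74 in FS023. Prostate lay between 3.42 and 4.61 except FS012 at 7.64, and MEFs between -1.15 and 3.37. Atp2a1 was higher by 8.17 against MEFs (SE 1.62, adjusted p = 0.0011) and by 5.49 against prostate (SE 1.62, adjusted p = 0.0132, limma). Ryr1, the calcium release channel, was at 10.89, 9.91 and 10.58, at 4.99 in FS007, 3.47 in FS008, 9.23 in FS022 and 8.05 in FS023, and prostate lay between 3.20 and 5.26. Cacna1s, the voltage sensor that opens it, was at 9.37, 8.79 and 9.18, at 5.38 in FS007, 2.49 in FS008, 7.01 in FS022 and 7.39 in FS023. It was higher by 7.19 against MEFs (SE 1.39, adjusted p = 8.7e-04) and by 6.19 against prostate (SE 1.27, adjusted p = 0.0017, limma). Casq1, the calcium store protein, was at 10.76 to 11.23 in FS002, FS003 and FS005 and at 2.59 and 3.08 in FS007 and FS008. It passed against MEFs only (4.68, SE 1.65, adjusted p = 0.0267), and that call was lost without FS002, FS003 or FS005 (adjusted p = 0.0682 to 0.0688, limma). Cav3 and Sgca, membrane proteins of the fibre, passed in neither comparison. Cav3 was at 6.69 to 7.92 in FS002, FS003 and FS005 and at or below 3 reads in FS007 and FS008. Sgca was at 6.82 to 7.67 in FS002, FS003 and FS005, at 1.87 in FS007 and -0.17 in FS008, and at 4.25 to 5.27 in prostate. MEFs held Cav3 from 1.63 to 8.78, highest in the close pair FS017 (8.66) and FS018 (8.78), above FS002 (7.92).

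The energy genes overlapped most with prostate. Eno3, muscle enolase, was at 11.86, 11.02 and 11.10 in FS002, FS003 and FS005, 7.23 in FS007, 7.83 in FS008, 9.84 in FS022 and 9.41 in FS023, against 8.18 to 8.79 in prostate and 7.95 to 9.58 in MEFs. Ckm, muscle creatine kinase, was at 13.25, 11.98 and 11.41, at 4.84 in FS007, 2.99 in FS008, 11.17 in FS022 and 9.80 in FS023. Prostate held Ckm at 7.54 to 8.97 and MEFs at -2.75 to 2.07, so FS007 and FS008 lay below all prostate samples. Mb, the oxygen store of oxidative fibres, was at 11.68, 11.14 and 11.58, at 4.63 in FS007, 2.97 in FS008, 10.45 in FS022 and 9.40 in FS023. It was higher against both MEFs (7.97, SE 1.65, adjusted p = 0.0014) and prostate (4.97, SE 1.68, adjusted p = 0.0257, limma), and the call against prostate was lost without FS002, FS003 or FS005 (adjusted p = 0.0626 to 0.0655, limma). Pygm, muscle glycogen phosphorylase, was at 10.28 to 11.53 in FS002, FS003 and FS005, at 4.80 and 5.56 in FS007 and FS008 and at 7.47 to 8.77 in prostate. It passed against MEFs (5.39, SE 1.21, adjusted p = 0.0023) but not against prostate (0.33, SE 1.15, adjusted p = 0.823).

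In the iEpt only grafts most members were above their level in FS007 and FS008. Both FS022 and FS023 lay above FS007 and FS008 in 41 of the 46 members and in 24.6% of the shared genes, and by at least 2 log2 units in 31 members and in 4.31% of shared genes. FS002, FS003, FS005, FS022 and FS023 all lay at least 2 units above FS007 and FS008 in 31 members and in 2.69% of shared genes. FS023 lay below FS002, FS003 and FS005 in 40 members, and FS022 did so in 30 and lay above all 3 in 6. The shares of all shared genes that did so were not counted, so these counts describe the members only. The tables were normalized separately, and the median gene stood -0.10 and -0.12 log2 units from the first table in FS022 and FS023. Subtracting these offsets left the count of 31 as it was.

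Prostate sample FS012 stood above its 5 fellows in several genes of fast fibres, though not in all. The 46 genes together took 0.0677% of its normalized reads, within the range of the other prostate samples. FS012 lay at least 1 log2 unit above every other prostate sample in 13 members, against 1.71% of all genes and 0.380% of genes whose linear mean reached 10, while FS009 and FS011 did so in 1 member each and the others in none. The 13 were Myh4, Tnnt3, Mb, Myoz1, Myl1, Atp2a1, Tnni2, Mylpf, Mybpc2, Tcap, Cacna1s, Myh8 and Myf6. They included 6 of 10 adult fast isoforms and none of 5 slow isoforms. Among the other fast isoforms, FS012 minus the highest other prostate sample was -1.02 for Myh1, -1.56 for Myh2, -0.29 for Tnnc2 and 0.92 for Actn3. Myh4 exceeded the next prostate sample by 5.57 and Tnnt3, fast troponin T, by 3.92 log2 units. Per kb, Myh4 made up 68.7% of the 6 myosins in FS012 and at most 3.46% in any other prostate sample, where Myh1 or, in FS013, Myh7 had the largest share. In the grafts with abundant muscle transcripts Myh4 made up 0.490% to 7.10%. Acta1, Tnnc2, Ckm and Pygm, already high in all prostate samples, were within 0.45 log2 units of the highest other sample in FS012.

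**Figure D5:**
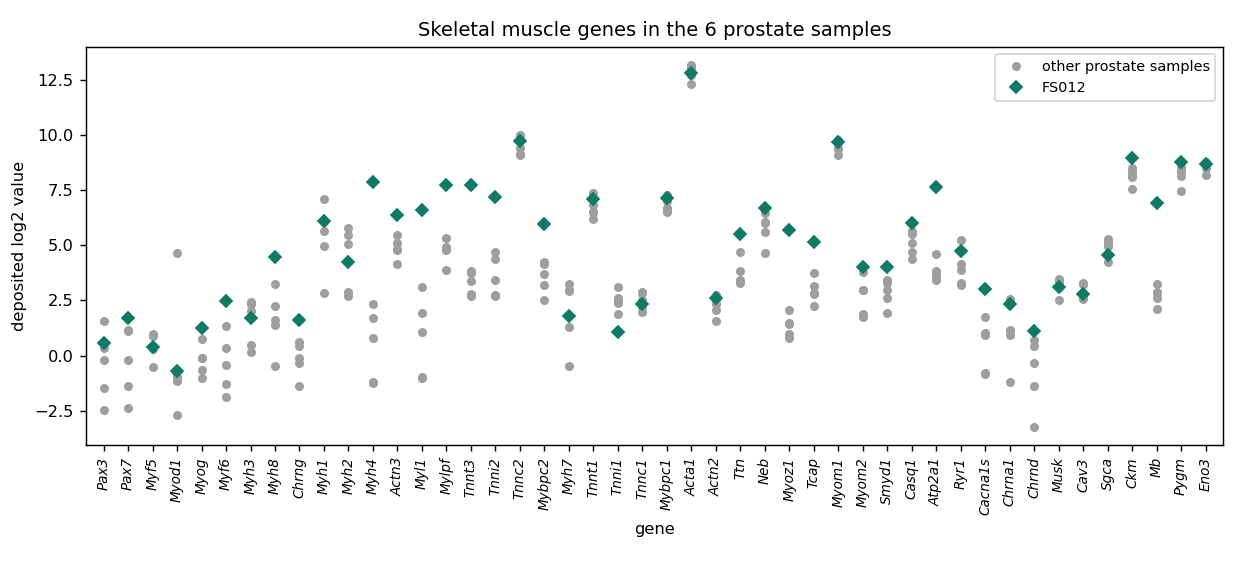
Deposited log2 values (vertical axis) of the 46 skeletal muscle genes (horizontal axis) in prostate sample FS012 (diamonds) and the other 5 prostate samples (circles). FS012 lies at least 1 log2 unit above all others in 13 genes, Myh4 by 5.57, and within or near their range in the slow isoforms.

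Prostate and MEFs were themselves compared. Of 27 members tested, 13 were higher in prostate and 3 lower, where 27.8% of 14560 genes tested were higher and 20.5% lower. Ckm (difference 7.91, SE 0.72, adjusted p = 3.1e-07), Tnnc2 (6.32, SE 0.22, adjusted p = 5.5e-11), Mybpc1 (5.96, SE 0.59, adjusted p = 7.1e-07) and Pygm (5.06, SE 0.37, adjusted p = 3.6e-08, all limma) led those higher in prostate, and Tnni1, Tnnc1 and Cav3 were lower. Without FS012, 10 were called in place of 16, and the calls of Ryr1, Tnni1 and Cav3 were lost, while Atp2a1, Mybpc2 and Mb fell under the filter on low values. No myogenic factor, progenitor regulator or developmental isoform passed the filter on low values in this comparison.

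Other skeletal muscle genes, 48 that are not members, moved in the same grafts. Against MEFs 47 were tested, and in the iEpt+NAF grafts 33 were higher and 1 lower. Of all genes tested, 29.9% were higher and 12.0% lower. Against prostate 48 were tested, and 25 were higher and 2 lower, where 23.0% of all genes tested were higher and 10.3% lower. FS002, FS003 and FS005 lay at least 2 log2 units above FS007 and FS008 in 39 of the 48, and in 5.45% of all genes. This list too was chosen with earlier results of these data known. Srl, sarcalumenin, was at 11.01, 10.73 and 10.44 against 5.57 and 6.52, and Kbtbd10, a kelch protein of the sarcomere, at 9.98, 9.67 and 11.02 against 4.38 and 7.49. Jph1, junctophilin, went the other way, at 8.20, 7.63 and 8.92 against 9.48 in FS007 and 9.08 in FS008.

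Markers of other tissues moved with the members in part. The 8 neuronal genes together took 0.0360% to 0.0617% of normalized reads in FS002, FS003 and FS005, 0.00568% in FS008, 0.00606% in FS007, 0.0319% in FS022 and 0.468% in FS023. All 8 exceeded 3 reads in FS002, FS003, FS005, FS022 and FS023. In 6 of them the first 3 grafts lay at least 2 log2 units above FS007 and FS008, as they did in 5.45% of all genes. The same share applies to the counts for the lists that follow. By their mean over the iEpt+NAF grafts Mtap2 and Stmn2 were the highest of them, and in FS023 Mtap2 was at 13.92, Syp at 13.77 and Stmn2 at 13.54. The 10 smooth muscle genes took 0.122% to 0.215% in FS002, FS003 and FS005, 0.0961% in FS007, 0.0402% in FS008, 2.05% in FS022 and 0.0249% in FS023, against 0.525% to 0.969% in prostate. None of them lay at least 2 log2 units above FS007 and FS008 in all 3. The 12 cardiac genes, led by Tnnt2 and Myl4, took 0.00946% to 0.0220% in FS002, FS003 and FS005 and 0.00415% and 0.0115% in FS008 and FS007, and 3 of the 12 lay at least 2 log2 units apart. The 6 kidney genes, led by Kap and Slc34a1, took 0.00876% to 1.20% in FS002, FS003 and FS005 and 0.0445% and 1.01% in FS007 and FS008, with no gene at least 2 log2 units apart. The 6 cartilage genes, led by Hapln1 and Col2a1, took 0.0412% in FS005 and 0.00322% to 0.0121% in the other 4 iEpt+NAF grafts. The part of these tissues in the values of the members was not tested.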

How the data were processed

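The 19 samples were sequenced as single-end reads from TruSeq libraries that do not mark strand. The processing notes name bcl2fastq 1.8.4, TopHat, Cufflinks, DESeq and mm9, without their order. The authors normalized reads per gene with DESeq and deposited them as log2 values, in a table of 17 samples and one of 2. High values matched whole reads, each worth a fixed amount per sample, once an offset common to all samples was added. Lower values carried an added scatter with an SD of 1.07 to 1.12 at 0 reads, so whole reads were not recovered, and low values of single samples are uncertain to that extent. The smallest level that the depth can show covers counting error only. The standard errors come from the limma fits and measure the spread between samples.

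Groups follow the sample labels, which put all grafts in 1 group. The labels do not say whether replicates came from separate animals or cultures, so p-values measure the spread between these samples. Each pair of groups was fitted by itself in limma (version 3.58.1, R 4.3.3, with a mean-variance trend in eBayes), and genes whose linear mean was under 10 were left out. A gene was called at a Benjamini-Hochberg adjusted p under 0.05 over all genes tested and an absolute log2 difference of at least 1. Single genes were also tested with exact permutation tests (scipy 1.17.1, Python 3.11.15). These tests took the MEF samples as separate units, and none was run with the MEF pairs averaged. The genes, Myog, Myh1, Acta1 and Myh7, were picked as members whose values the text turns on. Adjustment over the 8 tests does not cover that choice. The code was tested on simulated data. Levels per kb used the inverse of the transformation and transcript lengths of GENCODE M1 on mm9.

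The members, the lists and the split of the grafts were chosen with earlier results of these data known. All 46 members are described: by sample for the regulators, the myosin heavy chains and the 2 highest genes of each other role, and by range otherwise. Alternatives changed the filter, scaling, pseudocount, samples in the fit, eBayes and the minimum difference, and left out samples. Averaging the MEF pairs was added after seeing the data.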

Additional observations from a re-analysis of the deposited data

Results flagged for a closer look

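Sets of 5 or 6 samples of 1 group were searched for a single sample far from the rest of its group (Dixon's ratio above its 95% critical value). Of 121 sets, 9 were flagged, where about 6.05 would be by chance. In the grafts, Pax3 in FS008 (1.62) was far below the other 4 (6.00 to 7.31). In prostate, FS012 was far above the other 5 samples in 4 genes: Tnnt3 (7.74 against 2.72 to 3.83), Myoz1 (5.70 against 0.81 to 2.09), Atp2a1 (7.64 against 3.42 to 4.61) and Mb (6.93 against 2.09 to 3.26). FS012 had been named for a check along with the gene list, possibly with its values known, and genes of 1 sample are not independent. The search therefore gives no separate support for these 4 genes. Prostate sample FS011 was high in Myod1 (4.64 against -2.68 to -0.68) and low in Musk (2.54 against 3.11 to 3.45). In MEFs, FS020 was high in Mybpc2 (3.45 against 1.29 to 1.61), and FS019 was low in Atp2a1 (-1.15 against 1.8 to 3.37). Values near or below the level of 3 reads, such as those of Pax3 in FS008, Musk in FS011 and Atp2a1 in FS019, carry added scatter, and its part in them was not tested.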

How the results depend on the processing

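The members called in grafts against MEFs numbered 36, and 7 without FS015 to FS018, which leaves 2 MEF samples, and 22 with the MEF pairs averaged, an alternative chosen after seeing the data. They ranged from 32 to 41 when each graft was left out in turn. Against prostate they numbered 27, and 15 to 35 when each graft was left out. In prostate against MEFs they numbered 16, and 7 with a linear mean of at least 50, 9 with all 17 samples in the fit, 10 without FS012 and 10 without FS015 to FS018, while the 12 left with MEF pairs averaged stayed within 1.5 times. The filters test fewer genes by construction, and the other causes were not tested. Ryr1 in prostate against MEFs went from 1.13 to -0.067 under quantile normalization. No other member called in the 3 comparisons changed direction under any alternative run, and no member was called lower in the grafts. The counts of members apart in the grafts (44, or 41 with quantile normalization), in FS022 and FS023 (31) and in FS012 (13), and the developmental shares of myosin without division by length, held. No paired analysis was possible because the labels give no replicate numbers that groups share. Below 3 reads, a value of 1.68 to 3.12 by sample, presence could not be shown.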

Other observations

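Besides Myh7, FS007 and FS008 held Tbx5, a factor of heart and forelimb, at 10.55 and 8.96, against 3.09 to 5.27 in FS002, FS003 and FS005, 6.22 in FS022 and -1.24 in FS023. MEFs, which were made from limbs, held Tbx5 at 7.80 to 8.45 and prostate at 4.16 to 5.39. Tbx5 was named after its values were seen. In the same 2 grafts Nppa was at 1.79 and 2.83 and Myl4 at 3.72 and 3.68, against 7.38 to 9.47 for Myl4 in FS002, FS003 and FS005. Actc1 was at 1.67 and 2.04 there against 8.52 to 9.47, and Tnnt2 at 6.50 and 4.53 against 8.91 to 9.61. Myl4, Actc1 and Tnnt2 were the 3 of 12 cardiac genes at least 2 log2 units higher in FS002, FS003 and FS005. Tbx5 was the only cardiac gene higher in both FS007 and FS008 than in all 3.

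The MEF cultures themselves differed in muscle genes by pair. Cav3 was at 8.66 and 8.78 in FS017 and FS018, at 5.91 and 6.22 in FS016 and FS019 and at 2.40 and 1.63 in FS015 and FS020. Tnni1 ran in the opposite order, at 5.70 and 5.23 in FS015 and FS020 and at 4.25 and 4.46 in FS016 and FS019. In FS017 and FS018 it was at 2.16 and 1.94, the last at or below 3 reads. Myh3 was at 4.99 and 5.13 in FS015 and FS020 and at or below 3 reads in FS016, FS017, FS018 and FS019. All 4 myogenic factors were at or below 3 reads in all 6 cultures. These genes too were named after their values were seen.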
